A study of Mus musculus with 7 samples.

Results

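Double-positive (DP) thymocytes lacking Id2, Id3 and pTα (L-DKO pTαKO, called LP, 2 libraries) were compared with DP thymocytes lacking pTα alone (pTαKO, 1 library), which asks what deletion of the Id genes does when the pre-TCR cannot form. These 3 libraries were chosen by genotype from a series of 7 labelled samples, of which 6 had values. The other 3 libraries have pTα, 1 being from a wild-type (WT) mouse and 2 from L-DKO mice with the same Id deletion, and they are used here to show where LP and pTαKO lie. Replicate 1 of pTαKO, set aside by the submitters because its sequencing was poor, was not analysed here. Each library came from the thymus of 1 mouse aged 4 to 5 weeks, and all the mice were littermates on a mixed B6/129 background. L-DKO mice carry floxed Id2 and Id3 alleles deleted by LckCre, a recombinase driven in T cell progenitors by a promoter of the kinase gene Lck, and LP mice combine this with a germline pTα deficiency. The sorted cells were TCRγδ- CD4+ CD8+. In its results the study adds a CD1d tetramer-negative gate, which is absent from the labels, and its methods state that fewer cells were sorted for pTαKO than for the other genotypes.

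E proteins such as E2A are transcription factors that bind DNA at E-box motifs, and Id proteins hold them back by pairing with them in a form that cannot bind DNA. pTα pairs with the newly made TCR beta chain to form the pre-TCR, whose signal lets thymocytes divide, switch off Notch-dependent genes and reach the DP stage. DP cells then rearrange the TCR alpha chain, and those that receive a TCR signal become conventional T cells or, when selected on CD1d, invariant natural killer T (iNKT) cells, which depend on the transcription factor PLZF.

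Values are log2(FPKM + 1), with FPKM the fragments counted for a gene after scaling by transcript length and library depth. Every difference is LP minus pTαKO in these log2 units, and its standard error (SE) comes from a limma model over the 6 libraries. The pTαKO library has no replicate, so its spread was taken from the L-DKO and LP pairs. With 2 libraries against 1, an exact permutation test cannot go below p = 0.333. Sequencing depth was not given. Library medians ran from 3.75 to 3.84, and entries listed at 0 from 183 to 265, the highest in pTαKO. A 0 can stand in a gene that every cell uses, as mt-Atp6, mt-Cytb and mt-Nd6, genes of the mitochondrial genome, were listed at 0 in LP replicate 1 and at 7.63 or more in each of the other 5 libraries. The pairs with pTαKO gave Pearson correlations across genes of 0.853 to 0.880, and the LP pair gave 0.8903. LP replicates 1 and 2 gave 0.8925 and 0.8941 with WT, and 0.881 to 0.898 with the L-DKO libraries. The LP libraries were thus no closer to each other than to WT. The pTαKO library also held more myeloid RNA than the others, as the summed FPKM of 30 measured myeloid and dendritic markers was 1151 in pTαKO, and no more than 470 in the LP, L-DKO and WT libraries (470 and 449 for LP, 285 to 345 for the rest). Y-linked genes were near the floor in pTαKO and LP replicate 2 and high in the other 4 libraries (Ddx3y 0.68 and 0.63 against 4.21 to 5.14), so the LP replicates differ in this respect.

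The markers of the DP stage differed little between the groups. Cd4 was listed at 9.20 in pTαKO and 9.23 and 9.08 in LP (difference -0.04 ± 0.19), Cd8a at 9.31 against 9.50 and 9.41 (0.14 ± 0.18), and Cd8b1 at 10.04 against 10.10 and 9.96 (-0.01 ± 0.22). None of these differences exceeded its SE. Rag2, which encodes a subunit of the recombinase, was listed at 6.75 against 6.50 and 6.56. Over 24 measured genes of the DP stage, 0 differed by 2-fold without overlap in either direction. Over all 12063 genes tested 4.33% were higher and 5.56% lower by this measure, shares at which few of 24 genes would differ. Their median difference was 0.10, beside -0.005 over all genes tested. In both LP libraries 14 of the 24 were higher and 6 lower (beside 33.9% and 35.3% of all genes tested). The pTαKO library had the lowest value for 9, a count for which the share over all genes is not given here.

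Among the targeted genes, Id3 was listed at 5.25 in pTαKO and at 1.96 and 3.18 in LP, a difference of -2.68 ± 0.79 that did not pass the limma test (adjusted p = 0.744). Both LP libraries were below pTαKO, and a part of the Id3 signal remained in each. Id2 was already low in pTαKO, at 1.87, and was listed at 1.92 and 0.995 in LP, so the groups overlapped. The WT library gave 6.22 for Id3 and 3.56 for Id2. Ptcra, which encodes pTα, was listed at 5.75 in pTαKO and 5.35 and 5.87 in LP, beside 5.06 in WT and 6.35 and 6.62 in L-DKO. The deleted stretch of Ptcra is not given in the sources used here, so these whole-gene values are no check of the allele.

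Few genes passed the limma test, which on simulated data without any change also made some calls. At an adjusted p of 0.05 it called 9 genes higher in LP (0.0746% of the genes tested) and 3 lower (0.0249%), while an unadjusted p under 0.05 was reached by 350 genes higher (2.90%) and 397 lower (3.29%). All 9 genes called higher were listed at 0 in pTαKO, and 7 of them are short RNA genes, ribosomal RNA entries or unnamed models (AC034285.2, AC034285.4, Gm22634, Gm23804, Rnu1a1, Rn18s-rs5 and Mirlet7i), the others being Yam1 and Slc25a12. Mirlet7i and Slc25a12 were also at 0 in WT and at 14.06 or more in each of the 4 Id-deleted libraries. Of the genes called lower, Tmcc3 was listed at 12.48 in pTαKO against 4.19 and 4.11 in LP, and between 3.71 and 4.33 in WT and L-DKO (difference -8.33 ± 0.19, adjusted p = 0.000916 in limma). Dis3l2, which encodes an RNA exonuclease, was listed at 7.03 in pTαKO and at 0 in both LP libraries. The pTαKO value was thus the high one for Tmcc3 and for Dis3l2. Without LP replicate 1 or 2 the count called lower was 6 or 7, and without L-DKO replicate 2 it was 5. The RNA genes and unnamed models fall outside the naming rule and were picked once their values were known.

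Without a test, 522 genes were at least 2-fold higher in LP with no overlap between the groups (4.33% of the genes tested) and 671 were at least 2-fold lower (5.56%). The place of the WT and L-DKO libraries splits them. Of the 522 higher genes, 108 had both LP libraries above all 4 others, 245 had pTαKO below all 5 others, 79 had both features and 90 had neither, so LP was apart in 187 (1.55% of all genes tested) and pTαKO in 324 (2.69%). Of the 671 lower genes, 80 were set apart by LP, 447 by pTαKO, 73 by both and 71 by neither, with LP apart in 153 (1.27%) and pTαKO in 520 (4.31%). A gene set apart by pTαKO alone rests on 1 mouse. The largest of the differences also include genes carried by 1 LP library, such as Trim56, listed at 13.78 in LP replicate 2 but at 5.84 in LP replicate 1 and 5.10 in pTαKO, and Smarcad1, at 13.33, 4.40 and 4.25 in the same order. Among genes with no 0 in any library and with LP replicates within 1 unit of each other, a restriction added after the data were seen, 307 were higher and 406 lower.

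The 4 genes given as markers of the contrast, Izumo1r, Vdr, Klf2 and Zbtb16, were all among those restricted higher genes. Among the named protein-coding genes of that higher set, the largest difference was that of Ece1, an endothelin-processing protease gene. It was listed at 4.49 in pTαKO against 9.26 and 8.90 in LP, and at 8.32 to 10.71 in WT and L-DKO. Izumo1r, which encodes the folate receptor family protein FR4 of regulatory and anergic T cells, was listed at 0.81 in pTαKO and at 4.97 and 5.51 in LP. WT had 2.78 and L-DKO 3.23 and 2.59, so LP was the highest and pTαKO the lowest of the 4 genotypes. The difference was 4.43 ± 0.46, a 21.5-fold ratio of FPKM + 1 (adjusted p = 0.133 in limma). Vdr, the vitamin D receptor gene, needed in mice for normal iNKT cell numbers, was listed at 0.21 in pTαKO, 3.49 and 3.79 in LP, 0.46 in WT and 0.70 and 1.51 in L-DKO (3.43 ± 0.57, adjusted p = 0.381 in limma). Klf2, a transcription factor gene that drives exit from the thymus, was listed at 0.86 in pTαKO, 3.56 and 3.37 in LP, 1.64 in WT and 1.79 and 1.95 in L-DKO (2.61 ± 0.42, adjusted p = 0.366 in limma). Zbtb16, which encodes PLZF, was listed at 0.020 in pTαKO and 0.032 in WT, both near 0, at 0.69 and 0.29 in L-DKO, and at 1.74 and 2.44 in LP (2.07 ± 0.60, adjusted p = 0.739 in limma). In all 4 genes both LP libraries lay above every other library and pTαKO lay below every other, and none passed the test across all genes. In GRCm38.p6, Izumo1r lies on chromosome 9 (14885814 to 14903951), Vdr on chromosome 15 (97854427 to 97908296), Klf2 on chromosome 8 (72319062 to 72321654) and Zbtb16 on chromosome 9 (48651797 to 48836225).

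**Figure D1:**
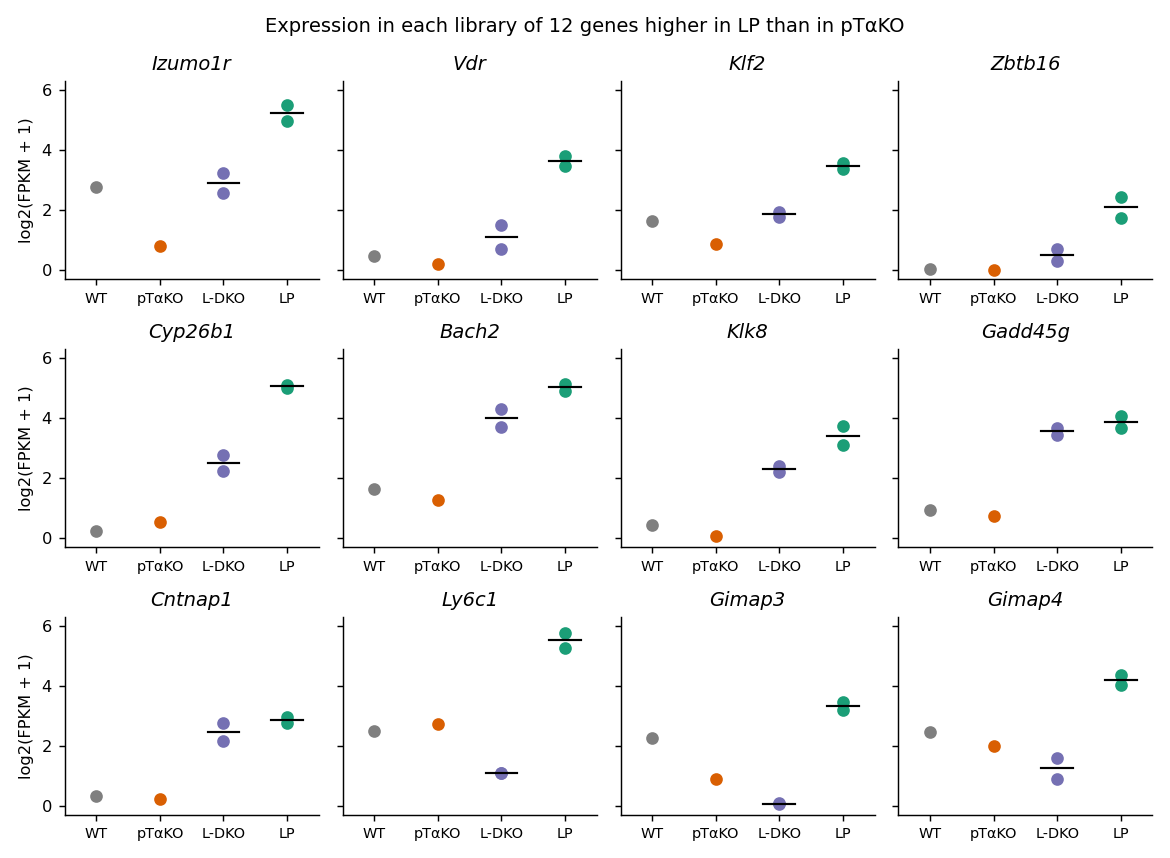
Expression of 12 genes in each of the 6 libraries, with log2(FPKM + 1) on the vertical axis, 1 point per library and a bar at the mean of each pair. Both LP points lie above the pTαKO point in every panel, for Izumo1r at 4.97 and 5.51 against 0.81, while the L-DKO points lie near LP for Gadd45g and below WT for Ly6c1.

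Since Id proteins hold back E proteins, the promoter windows of leading genes are shown with their E-boxes in capitals, namely CAGCTG, which reads the same on either strand, and CACCTG, which on the other strand reads CAGGTG. The windows are from RefSeq (GRCm38.p6), run from 250 bases before to 50 after the annotated start, and are written 5′ to 3′ along the strand of the gene.
Izumo1r, chr9:14903718-14904017, minus strand: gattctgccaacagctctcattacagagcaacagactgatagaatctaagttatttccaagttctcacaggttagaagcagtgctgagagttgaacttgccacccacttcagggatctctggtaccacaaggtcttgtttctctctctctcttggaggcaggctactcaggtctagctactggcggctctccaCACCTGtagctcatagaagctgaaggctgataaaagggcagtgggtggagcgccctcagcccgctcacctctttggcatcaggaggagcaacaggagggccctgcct
Vdr, chr15:97908247-97908546, minus strand: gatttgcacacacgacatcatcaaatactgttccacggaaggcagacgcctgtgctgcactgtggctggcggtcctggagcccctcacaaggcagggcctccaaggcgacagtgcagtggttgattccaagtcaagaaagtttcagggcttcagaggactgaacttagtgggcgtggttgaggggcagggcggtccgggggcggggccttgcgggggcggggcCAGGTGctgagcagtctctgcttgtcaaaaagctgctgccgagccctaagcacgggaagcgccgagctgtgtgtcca
Cyp26b1, chr6:84593761-84594060, minus strand: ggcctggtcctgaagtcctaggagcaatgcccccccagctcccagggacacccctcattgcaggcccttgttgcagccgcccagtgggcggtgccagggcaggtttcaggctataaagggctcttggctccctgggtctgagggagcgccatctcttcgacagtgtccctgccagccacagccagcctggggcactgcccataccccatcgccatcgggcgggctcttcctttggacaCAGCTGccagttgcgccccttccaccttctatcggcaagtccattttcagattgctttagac
Gadd45g, chr13:51846425-51846724, plus strand: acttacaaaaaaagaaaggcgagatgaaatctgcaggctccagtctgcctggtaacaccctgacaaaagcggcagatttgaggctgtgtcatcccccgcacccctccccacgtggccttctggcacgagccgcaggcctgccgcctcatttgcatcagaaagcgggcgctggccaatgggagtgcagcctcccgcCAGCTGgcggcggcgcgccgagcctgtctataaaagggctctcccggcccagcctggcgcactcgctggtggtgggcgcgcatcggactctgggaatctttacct
The windows of Izumo1r and Vdr hold 1 CACCTG or CAGGTG each, and those of Cyp26b1 and Gadd45g hold 1 CAGCTG each. In the windows of Klf2 and Bach2 these letters were not found. The Bach2 window (chr4:32417185-32417484, plus strand) lies inside the gene, whose listed span begins at 32238413, so the region before that position was not searched. No window was available for Zbtb16. At least 1 of these E-boxes was present in 32.9% of all 32851 promoter windows in the table and in 29.8% of the windows of genes tested. It was present in 36.5% of the windows of the 283 matched genes among the 522 higher in LP, and in 33.1% of those of the 387 matched among the 671 lower. A match of letters is a description and not a site of binding.

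Other genes set apart by LP have varied roles. Jchain, which encodes the joining chain of secreted antibodies, was listed at 0.52 in pTαKO and 4.72 and 4.94 in LP (4.31 ± 0.70), with 0.78 in WT and 2.46 and 1.00 in L-DKO. Of the 22 genes on the list of B cell and plasma cell markers, 8 were measured, with a median of 0.33. In both LP libraries 6 were higher and 2 lower (beside 33.9% and 35.3% of all genes tested). Besides Jchain, Igkc was at least 2-fold higher (0.21 in pTαKO and 1.504 and 2.32 in LP), and Blnk, a B cell adaptor gene, was at least 2-fold lower (2.32 against 1.12 and 1.199). The part of such cells in the Jchain values was not tested. Nrgn, which encodes a calmodulin-binding protein, was listed at 1.25 against 5.30 and 4.31 (3.56 ± 0.68), and Synj2, a lipid phosphatase gene, at 1.34 against 3.74 and 3.76 (2.41 ± 0.36). Mef2c, a transcription factor gene of early lymphoid progenitors and myeloid cells, was listed at 0.30 in pTαKO, between 0.049 and 0.13 in WT and L-DKO, and at 3.12 and 2.02 in LP. It was thus near 0 in every library but those of LP. Slfn1, a Schlafen family gene linked to T cell quiescence, was listed at 0.70 against 3.05 and 2.94 (2.29 ± 0.45), and the homeobox genes Hoxa5 and Hoxa7 at 0.46 against 2.45 and 2.92 and at 1.89 against 3.56 and 3.49. None of these differences passed the limma test (adjusted p from 0.291 for Synj2 to 0.740 for Mef2c).

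The same Id deletion was next examined in the presence of pTα. L-DKO minus WT shares no library with LP minus pTαKO. Of the 522 genes higher in LP, 303 were also higher in L-DKO than in WT (58.0%, beside 52.4% of all genes tested), and of the 671 lower genes 362 were also lower (53.9%, beside 47.6%). Across the 12063 genes, which are not independent replicates, the differences of the 2 comparisons had a Pearson r of 0.081 and a Spearman rho of 0.080. At least 2-fold and without overlap in both, 77 genes were higher in the one and in the other, 14.8% of the 522 and 20.1% of the 384 higher in L-DKO, and 56 were higher in LP but lower in L-DKO (10.7% and 12.4%). For the lower genes the counts were 86 in the same direction (12.8% and 19.1%) and 63 in opposite directions (9.39% and 16.4%). Over all genes tested, 3.18% were at least 2-fold higher and 3.73% lower in L-DKO without overlap.

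**Figure D2:**
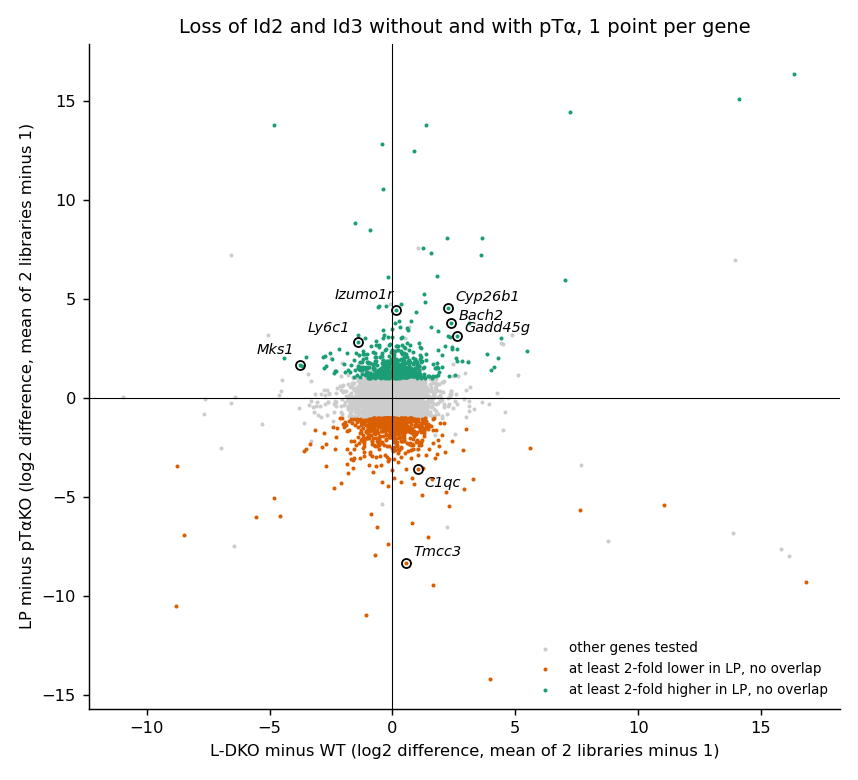
LP minus pTαKO (vertical axis) against L-DKO minus WT (horizontal axis), both as log2 differences, with 1 point for each of the 12063 genes tested. Green and orange points are the 522 and 671 genes at least 2-fold higher or lower in LP without overlap, and the cloud shows little slope (Pearson r of 0.081), while Cyp26b1, Bach2 and Gadd45g lie high on both axes.

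A small group of genes was higher in both Id-deleted genotypes with close replicates. With LP and L-DKO replicates each within 1 unit and no 0, 21 named genes were higher in both comparisons. Cyp26b1, which encodes an enzyme that degrades retinoic acid, was listed at 0.23 and 0.52 in the Id-intact WT and pTαKO libraries, while the L-DKO pair had 2.76 and 2.22 and the LP pair 5.11 and 5.01 (4.54 ± 0.43, adjusted p = 0.118 in limma). LP lay above L-DKO, and both lay above the Id-intact libraries. Bach2, a transcriptional repressor gene that restrains effector differentiation of T cells, had 1.62 and 1.27 in the Id-intact libraries, and the L-DKO pair had 4.31 and 3.71 and the LP pair 5.13 and 4.91 (3.75 ± 0.39, adjusted p = 0.133 in limma). Gadd45g, a stress-response gene that activates p38 kinase signalling, had 0.93 and 0.74 in the Id-intact libraries, beside 3.43 and 3.67 for L-DKO and 4.07 and 3.65 for LP (3.12 ± 0.41, adjusted p = 0.243 in limma), so L-DKO and LP overlapped. Klk8, a serine protease gene, had 0.45 and 0.059 without the Id deletion, 2.18 and 2.40 for L-DKO, and 3.09 and 3.74 for LP. Cntnap1 and the potassium channel gene Kcnf1 showed the same split, Cntnap1 with 0.33 and 0.23 against 2.16 to 2.97, and Kcnf1 with 0.56 and 0.34 against 2.06 to 3.29. Spry2, an inhibitor of receptor kinase signalling, Tnfrsf9, the costimulatory receptor 4-1BB, and Zbtb7b, which encodes the CD4 lineage factor ThPOK, were in the group as well, with LP minus pTαKO of 1.62, 1.196 and 1.17 and L-DKO minus WT of 1.09, 1.26 and 1.12. Of the 25 promoter windows of the 17 genes matched, 15 held at least 1 of the E-boxes above (60.0%). The group was picked by its values, so this share has no test.

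Lower in both comparisons, under the same limits, were 27 named genes. E2f7, an E2F family repressor gene of the cell cycle, was listed at 3.74 in WT and 4.59 in pTαKO, while L-DKO had 2.13 and 2.97 and LP had 2.06 and 2.77. Tgm2, a transglutaminase gene, had 2.42 and 3.63 in WT and pTαKO, beside 1.26 and 1.22 for L-DKO and 1.14 and 1.04 for LP. Both genes were thus higher in each Id-intact library than in any Id-deleted one. Duxbl1, Duxbl2 and Duxbl3 had like values and are near-identical copies whose reads cannot be assigned with certainty (Duxbl1 at 2.33 and 2.41 against 0.10 to 1.25).

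Opposite directions were seen for 12 named genes higher and 11 lower in LP. Ly6c1, a surface antigen gene of memory-like and innate-like T cells, was listed at 2.71 in pTαKO and 5.26 and 5.76 in LP (2.80 ± 0.39), but at 2.48 in WT and 1.09 and 1.09 in L-DKO. Gimap3 and Gimap4, GTPase genes of T cell survival, behaved alike. Gimap3 was listed at 0.89 in pTαKO and 3.21 and 3.45 in LP, against 2.25 in WT and 0.048 and 0.080 in L-DKO, and Gimap4 at 1.99 and then 4.03 and 4.36, against 2.46 in WT and 1.59 and 0.91 in L-DKO. Other genes of the family had no such pattern, with differences of 0.22 for Gimap6, 0.19 for Gimap8, 0.33 for Gimap9 and -0.12 for Gimap1. The 11 lower genes include the macrophage genes C1qb and C1qc, and Il2ra, each highest in pTαKO (C1qb at 5.775 against 3.194 and 3.897 in LP). Not every one was, as Fam214b was higher in L-DKO replicate 1 (2.649) than in pTαKO (2.275). The part of myeloid RNA in this group was not tested. The test of the difference between the comparisons (the interaction in limma) called 5 genes higher (0.0414%) and 1 lower (0.00829%), and 538 genes had an unadjusted p under 0.05 (4.46%). For Ly6c1, Gimap3 and Gimap4 it did not pass (adjusted p = 0.368, 0.457 and 0.79). Mks1 had an interaction of 5.42 with an adjusted p of 0.305 in limma, and WT stood apart, at 5.42 against 0.65 to 2.41 in the other 5 libraries.

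Genes known to respond to TCR signals had a lower median in pTαKO than in the other libraries, although not every member did so. Of 34 measured genes that TCR signals induce or that mark selected cells, 28 had a mean above pTαKO in LP (beside 49.5% of all genes tested). In both LP libraries 25 were higher and 4 lower (beside 33.9% and 35.3% of all genes tested). The median difference was 0.52 (0.52 and 0.41 for LP replicates 1 and 2 alone). At least 2-fold without overlap, 10 genes were higher and 0 lower (beside 4.33% and 5.56% of all genes tested). In limma 7 had an unadjusted p under 0.05, each of them higher (beside 2.9% of all genes tested), and 0 passed adjustment. Relative to each gene's mean over the 6 libraries, the median of the list was -0.60 in pTαKO, while LP had 0.10 and -0.14, L-DKO 0.20 and 0.18, and WT 0.16. The pTαKO library had the lowest of the 6 values for 19 of the 34 genes and the highest for 4, counts for which shares over all genes are not given here. The 4 genes lower in both LP libraries were H2-D1, H2-K1, Socs3 and Runx3. Egr1, an immediate early transcription factor gene, was listed at 2.996 in pTαKO, 4.79 and 4.27 in LP, 5.06 in WT and 5.60 and 5.22 in L-DKO (1.53 ± 0.33, adjusted p = 0.543 in limma). Egr2, which is needed for iNKT development, was listed at 2.197 against 3.47 and 2.96 in LP, and Cd2, an adhesion receptor gene, at 5.47 against 6.71 and 6.37. Cd5, a surface receptor gene used as a gauge of TCR signal strength, had 5.16 in pTαKO and 5.999 and 5.67 in LP, below the 7.05 of WT and the 7.37 and 7.45 of L-DKO. Bcl2l11, which encodes the death mediator Bim, was listed at 4.16 against 5.17 and 5.00, and Bbc3, which encodes Puma, at 4.24 against 5.31 and 5.36. Cd40lg, which encodes the CD40 ligand of activated T cells, was listed at 0.094 against 1.98 and 3.08. The median of the list in L-DKO minus WT was 0.02. Fewer cells of a kind and less RNA of these genes per cell cannot be told apart in bulk samples. A list of heat shock and immediate early genes (27 measured) also had its lowest median in pTαKO, at -0.32 beside -0.05 to 0.15 in the other libraries. The pTαKO value was the lowest for 13 of the 27, again without a share over all genes beside it. A link between the 2 lists was not tested.

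**Figure D3:**
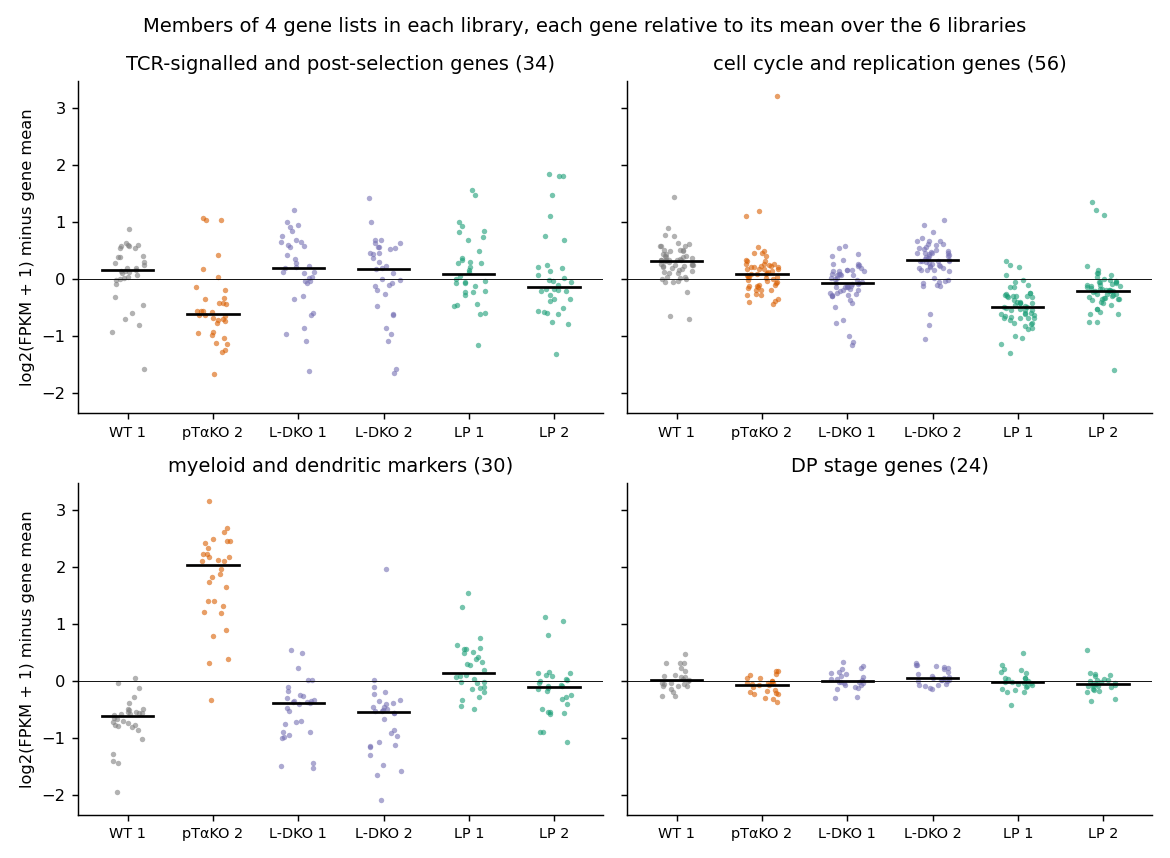
Members of 4 gene lists in each library, 1 point per gene, as log2(FPKM + 1) minus the mean of that gene over the 6 libraries, with a bar at the median. The median of TCR-signalled genes is lowest in pTαKO (-0.60), that of cell cycle genes is lowest in LP (-0.49 and -0.20), that of myeloid markers is highest in pTαKO (2.02) and the medians of genes of the DP stage stay between -0.07 and 0.05.

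Innate effector and iNKT genes were examined as lists that share members with the one above. Of 37 measured iNKT selection and development genes, 26 were higher in both LP libraries and 4 lower in both (beside 33.9% and 35.3% of all genes tested). At least 2-fold higher were 9 and lower 1 (beside 4.33% and 5.56%), and the median difference was 0.24 (L-DKO minus WT 0.13). Relative to each gene's mean over the 6 libraries, the median of the iNKT list was -0.36 in pTαKO. It was 0.05 and 0.03 in LP, 0.04 in each L-DKO library and -0.05 in WT. The pTαKO value was the lowest for 21 of the 37 genes, and both LP values were above all others for 11. Shares over all genes are not given here for either count. Ccr7, a chemokine receptor gene of mature thymocytes, was listed at 1.47 in pTαKO and 3.04 and 3.05 in LP (1.58 ± 0.42), and Itgb7, an integrin chain gene, at 2.40 against 3.47 and 3.73. For both, LP was above all 4 other libraries. Among 14 measured of 38 innate-like and cytotoxic effector genes, 4 were at least 2-fold higher and 2 lower (beside 4.33% and 5.56% of all genes tested), with a median of 0.37. Gzma, a protease gene of cytotoxic granules, was listed at 5.95 in pTαKO and 7.52 and 7.19 in LP (1.40 ± 0.21, adjusted p = 0.285 in limma), beside 4.66 in WT and 5.72 and 5.75 in L-DKO. Il2rb, a receptor chain gene for IL-2 and IL-15, was listed at 0.90 against 2.23 and 1.66. Klrd1, which encodes the NK receptor chain CD94, was listed at 0 in pTαKO, WT and L-DKO replicate 2, at 0.79 in L-DKO replicate 1, and at 1.71 and 1.47 in LP. The 2 lower members, Fcer1g (4.66 against 2.60 and 2.57) and Tyrobp (5.29 against 3.40 and 3.27), are adaptor genes also used by myeloid cells, and without members shared with the myeloid and MHC class II lists the median was 0.57. Trav11 and Trav11d, near-identical segments of which Trav11 encodes the Vα14 region of the iNKT receptor, were listed at 0.28 and 0 in pTαKO and at 3.66 and 2.65 and at 3.39 and 2.90 in LP. WT had 1.99 and 1.92, and the L-DKO replicates split, with 2.65 and 2.95 in replicate 1 and 0 and 0.24 in replicate 2. Reads from these segments cannot be assigned to 1 of them with certainty. Over all 101 measured TCR alpha V segments 18 were at least 2-fold higher and 29 lower (beside 4.33% and 5.56% of all genes tested), with a median of -0.24. Large differences in either direction were thus more common among these segments than among all genes.

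Cell cycle genes leaned lower in LP. Of 56 measured cell cycle and replication genes, 48 had a lower mean in LP than in pTαKO (beside 50.5% of all genes tested), and both LP values were below pTαKO for 44 and above it for 6, with a median of -0.47 (-0.60 and -0.25 for LP replicates 1 and 2 alone). At least 2-fold without overlap, 3 genes were lower and 0 higher (beside 5.56% and 4.33% of all genes tested). The lower count is thus near the share of all genes. In limma 6 had an unadjusted p under 0.05, each of them lower (beside 3.29% of all genes tested), and 0 passed adjustment. For 32 of the 56, both LP libraries were below all 4 others, a count for which the share over all genes is not given here. Relative to each gene's mean over the 6 libraries, the median of the list was -0.49 and -0.20 in LP, 0.09 in pTαKO and 0.32 in WT. The L-DKO replicates had -0.07 and 0.33, so mice of 1 genotype also differed. Cdk1, the kinase gene of entry into mitosis, was listed at 6.71 in pTαKO and 5.52 and 5.96 in LP, with 6.17 to 6.90 in WT and L-DKO (-0.97 ± 0.30). Cenpa, a centromere histone gene, was listed at 6.90 against 6.09 and 5.97, and Tk1, a gene of nucleotide salvage, at 6.16 against 5.47 and 5.07. Cdc25c, a phosphatase gene that activates Cdk1, was listed at 4.80 in pTαKO and 3.02 in WT, while LP had 0.46 and 0 and L-DKO had 0.49 and 0.79, so it was lower in every Id-deleted library than in either Id-intact one. The median of the list in L-DKO minus WT was -0.15. Of 71 measured histone genes, whose mRNAs mostly lack poly(A) tails, 38 were lower in both LP libraries and 14 higher in both (beside 35.3% and 33.9% of all genes tested), with a median of -0.37, and L-DKO minus WT gave -0.33.

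Over 22 measured Notch pathway and early-stage genes, 2 were higher in both LP libraries than in pTαKO and 11 lower in both (beside 33.9% and 35.3% of all genes tested). Their median was -0.21. Relative to each gene's mean over the 6 libraries the median of the list was 0.27 in pTαKO, with LP at 0.05 and 0.20, L-DKO at -0.02 and -0.36 and WT at -0.45, so LP replicate 1 lay near L-DKO replicate 1. Notch1 itself was listed at 3.89 in pTαKO and 2.92 and 3.21 in LP, but between 0.46 and 0.85 in WT and L-DKO. Hes1, a direct Notch target, was listed at 4.07 against 3.88 and 3.55 and Notch3 at 6.56 against 6.34 and 6.34 (difference -0.22 ± 0.33). For Notch1, Hes1 and Notch3, picked once their values were known, LP was nearer to pTαKO than to WT. On the list 1 gene was at least 2-fold higher (Mef2c) and 3 lower (beside 4.33% and 5.56% of all genes tested). Those 3 were Il2ra, the CD25 gene of the stage before DP, at 5.01 in pTαKO against 3.31 and 3.76 in LP, Spi1, a myeloid and progenitor factor gene, at 3.79 against 2.22 and 1.53, and Tcrg-C1. The gamma chain constant gene Tcrg-C2 was listed at 6.25 in pTαKO and 2.85 and 2.202 in LP, beside 0.22 to 1.62 in WT and L-DKO (-3.72 ± 0.65, adjusted p = 0.415 in limma), and Tcrg-C1 at 2.99 against 0.20 and 2.03. The 15 measured gamma-delta lineage genes went both ways, with 5 higher and 6 lower in both LP libraries, near the shares of all genes tested (33.9% and 35.3%). Their median was 0.16 (-0.05 and 0.36 for LP replicates 1 and 2 alone). At least 2-fold lower were Tcrg-C1, Tcrg-C2 and the transcription factor gene Maf (2.40 against 1.30 and 1.13), and 5830411N06Rik was higher (0.43 against 2.86 and 3.34). Sox13, a gamma-delta lineage factor gene, was listed at 1.72 in pTαKO and 2.12 and 2.13 in LP. The cells were sorted as TCRγδ-, and constant-gene RNA does not require a rearranged receptor.

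Myeloid markers had the largest median difference of any list. Of 30 measured markers, both LP values were below pTαKO for 28, with 24 at least 2-fold lower (beside 5.56% of all genes tested) and 1 higher, with a median of -1.94, while L-DKO minus WT gave 0.14. By library, 29 of the 30 were above their own mean in pTαKO. C1qc, a complement gene of macrophages, was listed at 6.36 in pTαKO and 2.76 and 2.79 in LP (-3.58 ± 0.33, adjusted p = 0.107 in limma), beside 1.75 to 2.81 in the 3 remaining libraries. Cybb, an oxidase subunit gene of phagocytes, was listed at 3.58 against 1.16 and 0.47, Mpeg1 at 4.04 against 1.80 and 1.26, and Csf1r, the receptor gene for M-CSF, at 3.22 against 1.64 and 1.44. In each, pTαKO was the highest of all 6 libraries. The exceptions were Itgam, at 1.63 against 2.48 and 3.08, and Lyz2, at 5.09 against 4.78 and 5.26. The MHC class II genes H2-Aa (5.84 against 3.04 and 2.57), H2-Eb1, H2-Ab1 and Cd74 were also at least 2-fold lower in LP, 4 of 8 measured, and H2-Ob was higher (1.52 against 2.64 and 2.84). Of 10 measured markers of thymic epithelium and stroma, 3 were lower and 2 higher in both LP libraries (beside 35.3% and 33.9% of all genes tested). Their median was -0.49 (0.03 and -0.61 for LP replicates 1 and 2 alone). The 2 at least 2-fold lower, Krt18 and Prss16, were listed at 3.14 and 2.87 in pTαKO against 0.10 and 0.051 and 0.016 and 1.00 in LP. The part of this RNA in the other genes lower in LP was not tested. With the myeloid and MHC class II members left out, an alternative added after seeing the data, the medians of the TCR-signalled and cell cycle lists were as above, since neither list holds such members.

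Several lists had a median difference near 0, which does not show that their members were alike. The median was 0.06 over 9 TCR constant regions and CD3 chains, 0.10 over 32 proximal TCR signalling genes, 0.01 over 16 Bcl2 family genes, 0.07 over 76 cytosolic ribosomal protein genes, -0.003 over 74 respiratory chain genes and -0.03 over 21 cytokine receptor genes. The ribosomal protein genes leaned higher by small amounts, with 46 higher and 10 lower in both LP libraries (beside 33.9% and 35.3% of all genes tested). Of the cytokine receptor genes 3 were at least 2-fold higher (Il12rb1, Il15ra and Il2rb) and 2 lower (Il17re and Il2ra), and of the Bcl2 family Bik and Bbc3 were at least 2-fold higher and 0 lower (beside 4.33% and 5.56% of all genes tested). Trac, the alpha chain constant gene, was listed at 8.06 in pTαKO and 8.34 and 8.10 in LP, below the 9.01 to 9.28 of WT and L-DKO. Glycolysis genes had a median of 0.20 (20 measured, 1 at least 2-fold higher). Interferon-stimulated genes had -0.20, and of 46 measured 2 were at least 2-fold higher and 4 lower (beside 4.33% and 5.56% of all genes tested). At any size, 8 of them were higher and 23 lower in both LP libraries (beside 33.9% and 35.3% of all genes tested). Ifit3 was listed at 2.25 in pTαKO against 0.62 and 0.84 in LP, with Slfn1 in the other direction.

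**Figure D4:**
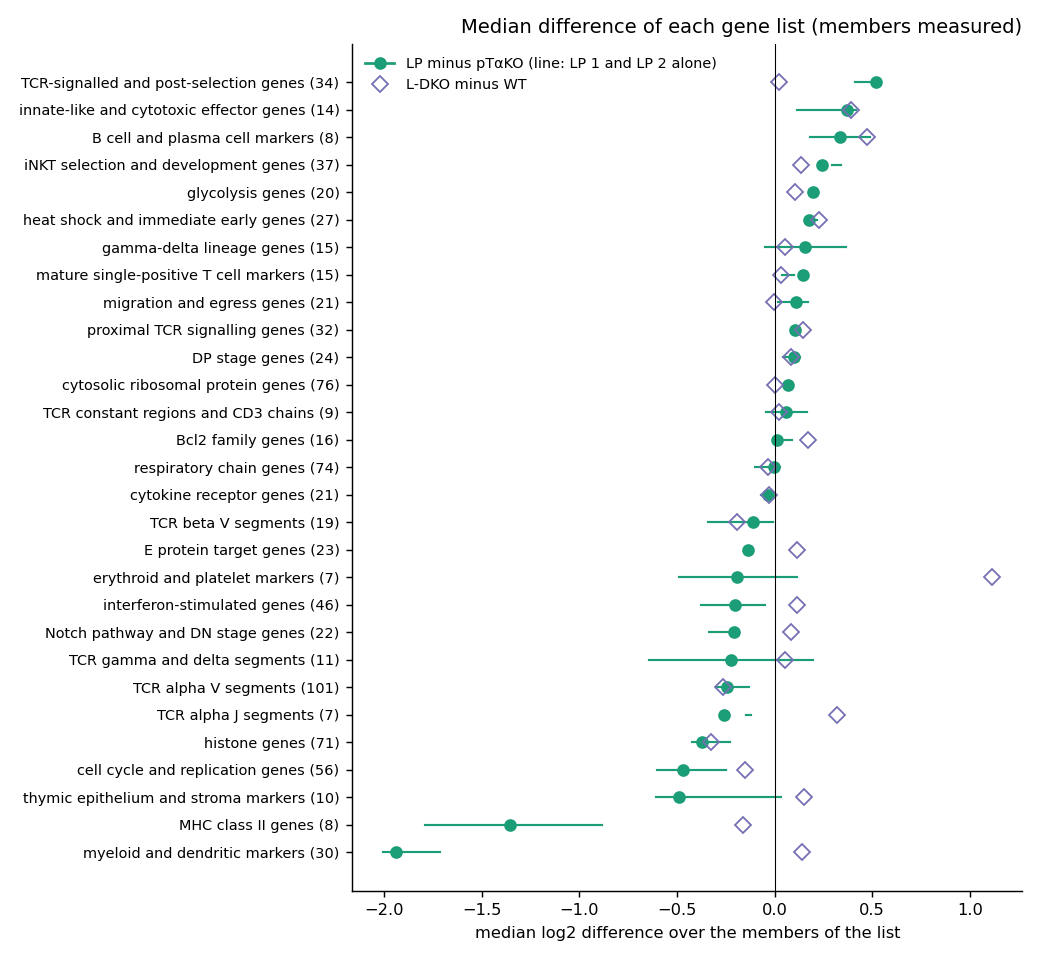
Median log2 difference of each gene list with 7 or more measured members, for LP minus pTαKO (filled circles, with a line joining the medians of LP replicates 1 and 2 alone) and for L-DKO minus WT (open diamonds). TCR-signalled genes lie at 0.52 beside 0.02 in L-DKO minus WT, cell cycle genes at -0.47 beside -0.15, and myeloid markers at -1.94 beside 0.14.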

How the data were processed

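RNA was enriched with oligo(dT) beads and made into cDNA from random hexamers. Per the submitters' processing notes, Trimmomatic 0.32, TopHat2 2.0.9 and Cufflinks 2.2.0 were used, with mm10 as the build. The deposited values are log2 FPKM per the file headers, taken as log2(FPKM + 1) because they are 0 or above. The authors' 2 columns of means and 3 columns of differences were not used. Of 13097 entries, 1540 share a symbol; for these the one of highest mean FPKM was used, leaving 12092. Hyphens were restored in 302 symbols. Testing took the 12063 genes whose FPKM averaged 0.5 or more. Every entry reached 1.016 FPKM in some library, so list members that are low throughout may be missing.

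A limma 3.58.1 model gave each genotype its own mean over the 6 libraries (R 4.3.3, eBayes with a trend, 2 residual degrees of freedom and 2.88 from the prior). P values were two-sided and adjusted by Benjamini-Hochberg at 0.05. The interaction is LP minus pTαKO less L-DKO minus WT. Libraries of a group are separate mice. The test was tested on simulated data, where it missed small changes and made some calls, more often for the interaction, when nothing had been changed. Members, gene lists and tests were chosen with earlier results of these data known. Genes were named if the study names them, if they passed the test with the largest differences between groups that did not overlap (or, with fewer than 5 passing, were largest among the non-overlapping), if they led a list or the interaction, or if they were targeted or sex-linked. One gene that the rule names is not reported here. Gene coordinates and promoters are from RefSeq (GRCm38.p6). Alternatives changed the filter, pseudocount, scaling, model, zeros, samples and replicates.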

Additional observations from a re-analysis of the deposited data

Results flagged for a closer look

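For 6 genes the difference between LP and pTαKO differed from that between L-DKO and WT by the interaction test of limma. Tmcc3, a transmembrane coiled-coil gene of the endoplasmic reticulum, had an interaction of -8.89 ± 0.26 (adjusted p = 0.00523), with 12.48 in pTαKO against 3.71 to 4.33 in the other 5 libraries. Gm8730, an unnamed model, had 4.75 ± 0.23 (adjusted p = 0.016 in limma), and here the L-DKO libraries stood apart, at 3.90 and 4.00, against 8.55 in WT, 7.89 in pTαKO and 8.10 and 7.98 in LP. The other 4 were listed at 0 in pTαKO and at 9.89 or more in every other library, so the size of each depends on that 0. Their interactions were 13.24 for Rn18s-rs5, 12.39 for AC034285.4, 11.59 for AC034285.2 and 10.94 for Yam1.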

How the results depend on the processing

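The count of genes called higher (9) was 5 with no trend and 1 when genes with a 0 were left out. The count called lower (3) was 1 at a mean FPKM of at least 5, 1 with log2(FPKM + 0.1), 6 with log2(FPKM + 5), 5 in the LP and pTαKO libraries alone and 1 without genes holding a 0. Leaving out LP replicate 1 gave 6 lower, LP replicate 2 gave 7 and L-DKO replicate 2 gave 5, and with each of these, or L-DKO replicate 1, left out the count ran from 4 to 7. Of the 12 calls, between 7 and 12 were kept under each alternative, except 2 of the 3 genes still tested without zeros. Genes at least 2-fold apart without overlap (522 higher, 671 lower) were 246 and 335 at a mean FPKM of at least 5, 156 and 250 with log2(FPKM + 5), and 307 and 406 with no 0 and LP replicates within 1. The interaction (5 higher, 1 lower) gave 2 and 2 with no trend, 2 higher without genes holding a 0, and 3 lower with log2(FPKM + 5). Without 1 library it gave 3 to 6 higher, with the lowest without L-DKO replicate 1, and 1 to 9 lower, with 7 without LP replicate 1 and 9 without LP replicate 2.

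Across genes, the deviations of L-DKO replicate 1 and LP replicate 1 from their group means had a correlation of 0.035. As 1 comparison of 1 library from each group, this cannot tell whether samples of the same replicate number share a batch. With the replicate number as a block, 11 genes were called higher and 2 lower, and the interaction gave 7 and 2, with the median of the cell cycle list at -0.22 in place of -0.47. No named gene with a call changed direction. Without LP replicate 1, the cell cycle median was -0.25. With 1 pTαKO library, a gene set apart by that library cannot be told apart from a trait of that mouse.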
